A study of Rattus norvegicus with 6 samples.

Results

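Chromatin accessibility was examined at 9 rat genes that act in glucose sensing and anaplerosis of the pancreatic islet: *Slc2a2*, *G6pc2*, *Pfkfb2*, *Pklr*, *Gpd2*, *Pc*, *Glud1*, *Me1* and *Ucp2*. All accessible sites (ACS) whose nearest gene carries one of these symbols in the deposited quantification table were taken, which gave 41 of 101603 distinct ACS, from 7 of the 9 genes. *Gpd2* is listed there without a symbol and was found by its gene ID, with 30 further ACS that are described apart from the 41. No ACS was listed with *G6pc2*. ATAC-seq, in which the Tn5 transposase cuts and tags open DNA, had been applied to dissociated islet cells of Sprague-Dawley rats. Of the 6 libraries, 3 came from adult male rats of about 3 months (replicates 4, 5 and 6). The other 3 came from litters of pups at postnatal day 10 (P10, replicates 1, 2 and 3), each litter as a mix of a few pups. The study kept pups of both sexes, and the sex of those in each library is not given. Age and single rat against pooled litter therefore differed together between the groups, and sex may have. These cannot be told apart. No treatment or genetic change was applied.

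In the mature islet the β-cell senses glucose by metabolising it. GLUT2, the product of *Slc2a2*, carries glucose into the rodent β-cell, and glycolysis turns it into pyruvate. Pyruvate carboxylase, together with glutamate dehydrogenase and malic enzyme, feeds and drains the citric acid cycle. The refilling of the cycle is known as anaplerosis. The ATP made in this metabolism closes potassium channels and allows insulin to be released, whereas islets of newborn rats respond poorly to glucose.

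The upstream sequences of a few of these genes are shown because each stands for a different picture in the data: *Pfkfb2* was the only gene of the 41 ACS whose start was called more accessible in one age, the start of *Pklr* was open at both ages, and no ACS was listed within 1000 bp of the start of *Slc2a2*. Each run holds the 250 bases before the gene start in RefSeq (build GRCr8), 5′ to 3′ on the strand of the gene, with matches to the motifs searched in capitals. The runs lie at chr13:44726972-44727221 (minus strand) for *Pfkfb2*, chr2:176841014-176841263 (plus strand) for *Pklr* and chr2:113540120-113540369 (plus strand) for *Slc2a2*.
Pfkfb2: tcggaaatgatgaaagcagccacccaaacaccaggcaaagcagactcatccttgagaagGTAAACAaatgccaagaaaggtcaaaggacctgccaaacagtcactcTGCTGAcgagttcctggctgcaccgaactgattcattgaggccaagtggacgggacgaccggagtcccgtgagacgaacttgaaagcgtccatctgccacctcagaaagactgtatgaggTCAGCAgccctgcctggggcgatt
Pklr: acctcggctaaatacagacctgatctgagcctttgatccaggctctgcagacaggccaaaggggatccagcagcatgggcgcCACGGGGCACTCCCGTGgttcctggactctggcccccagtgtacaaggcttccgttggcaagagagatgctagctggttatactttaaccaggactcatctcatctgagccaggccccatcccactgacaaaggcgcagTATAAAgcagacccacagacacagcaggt
Slc2a2: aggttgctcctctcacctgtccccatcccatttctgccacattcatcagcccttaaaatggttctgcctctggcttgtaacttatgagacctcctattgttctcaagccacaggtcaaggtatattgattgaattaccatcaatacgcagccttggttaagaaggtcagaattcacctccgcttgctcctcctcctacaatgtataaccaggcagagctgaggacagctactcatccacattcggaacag
In *Pfkfb2* the capitals mark a FOXA motif (GTAAACA) that begins at -191 from the start and MAF motifs (TGCTGA) at -144 and, on the opposite strand, at -24. Of 33469 rat promoters of this length, 3.21% held the FOXA letters and 15.1% the MAF letters on either strand. In *Pklr* the capitals mark a match to the carbohydrate response element at -168, the kind of element through which glucose is known to act on this gene, and a TATA box (TATAAA) at -29. The former was found in 20 of the 33469 promoters (0.0598%) and the latter in 12.9%. It was added to the search after these promoters had been read. None of the motifs was found in the *Slc2a2* run. The matches do not overlap one another, they are matches of letters in a build other than the Rn5 of the ACS, and no occupancy was measured.

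The 6 libraries held between 7916919 and 21168463 Tn5 integrations within ACS, and every P10 library held more than every Adult library. The total reads per library given in the paper overlapped between the ages. Why the P10 libraries held more integrations within ACS was not tested. Within each age the libraries differed by more than counting noise (chi-square per degree of freedom 3.35 to 7.81), so that no library was a copy of another. Levels are given in CPM, integrations per 1000000 of the library within ACS after TMM scaling, and fold changes on the log2 scale as Adult over P10 with their standard error (SE). An ACS was called Up (more accessible in Adult) or Down (more accessible in P10) at p under 0.05 and FDR under 0.2 in the quasi-likelihood test of edgeR over all distinct ACS. The adjusted p is the Benjamini-Hochberg value of that test. Summed CPM over the ACS of islet marker genes was similar at both ages for β-cells (828 to 1009 in Adult, 828 to 1070 in P10) and without overlap higher in Adult for α-cells (858 to 987 against 696 to 790), duct cells (277 to 313 against 247 to 267) and endothelial cells (442 to 513 against 388 to 421). The sums for acinar, delta, immune and mesenchymal cells and for proliferation overlapped. By single ACS the duct genes did not follow their sum: 4 of 43 were Up and 5 Down (median log2 fold change -0.04). Up and Down were 22 and 3 of 103 for α-cells (median 0.12) and 9 and 2 of 54 for endothelial cells (0.11). For β-cells they were 8 and 13 of 89 (-0.12), beside 12.3% and 6.63% of all ACS. No ACS was listed for *Mafa*, *Cel*, *Cela1*, *Prss2*, *Cd68* and *Acta2*. In these bulk samples fewer cells of a type and lower accessibility per cell cannot be told apart, and the part of cell makeup in the values below was not tested.

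Of the 41 ACS, 8 were called Up and 1 was called Down, and 32 passed in neither direction. Over all 101603 ACS, 12.3% were called Up and 6.63% Down. With edgeR at the same limits the paper reported the opposite balance, more ACS Down than Up, and the cause of this difference was not tested. Adult stood above P10 without overlap at 7 of the 41 ACS and below it at 5, where 13.8% and 10.9% of all ACS did so. The median log2 fold change was 0.10 over the 41 ACS and -0.01 over all ACS. Of the 8 Up calls 6 belonged to *Slc2a2*, and the others were the *Pfkfb2* start and an ACS inside *Glud1*. The Down call was an upstream ACS of *Pklr*. The split between directions depended on the scaling: it was 6 Up and 4 Down with the sums of counts as library sizes and 7 Up and 5 Down with cyclic loess, where over all ACS it was 10447 Up and 10732 Down and 11068 Up and 9101 Down. When library sizes were taken from all sequenced reads instead, 0 were Up and 25 Down, and the median of all ACS was -0.84.

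**Figure D1:**
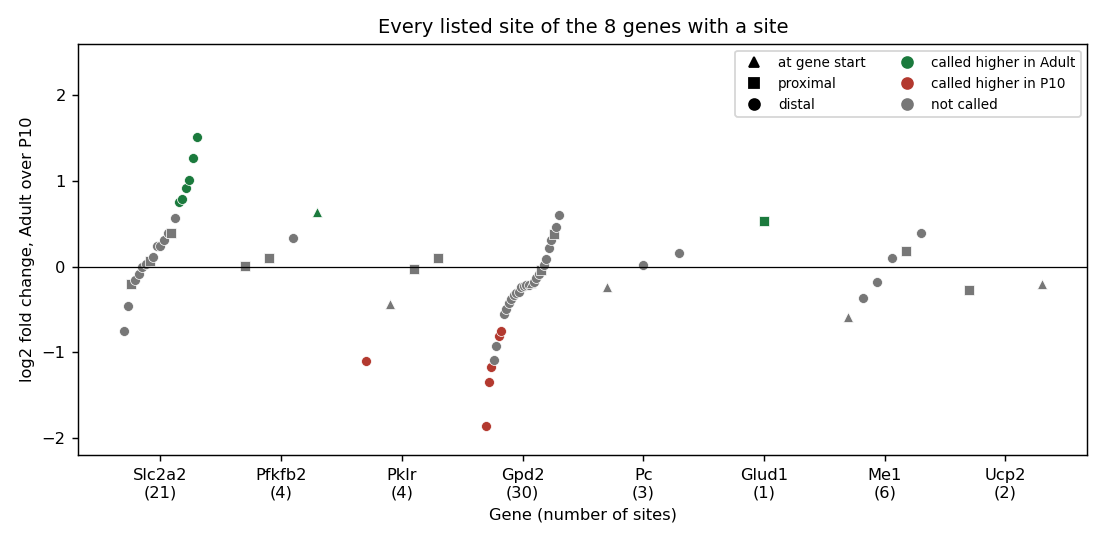
Log2 fold change (Adult over P10, y axis) of each ACS listed with the 8 genes that had any, sorted within a gene, with the number of ACS in brackets. Symbols give the class by distance from the gene start and colours the edgeR call. The Up calls sit mostly in *Slc2a2* (6 of 21) and the Down calls mostly in *Gpd2* (5 of 30).

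By class, 1 of 5 ACS at a gene start (within 1000 bp, TSS class) was Up and 0 were Down. Over all ACS of that class 2.73% were Up and 7.87% Down. Of 10 proximal ACS (up to 10000 bp), 1 was Up and 0 were Down, against 11.2% and 6.71% of all proximal ACS. Of 26 distal ACS, 6 were Up and 1 was Down, against 13.8% and 6.45% of all distal ACS. The 41 ACS were between 213 and 1723 bp wide. Levels per kb of ACS ranged in Adult from 3.63 CPM per kb at an upstream ACS of *Slc2a2* to 86.8 at an intragenic ACS of *Pfkfb2*.

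*Slc2a2*, the glucose transporter, was listed with 21 ACS between 155599 bp upstream and 272859 bp downstream of its start (gene at chr2:134112979-134144420, Rn5). Of these, 18 were distal and 3 proximal, and none was of the TSS class. The 6 Up calls were all distal, 4 upstream and 2 downstream, and no ACS was called Down, beside 13.8% Up and 6.45% Down of all distal ACS. The 15 uncalled ACS ranged from -0.74 to 0.57, and some were called in other fits. The ACS 37455 bp upstream was Down with sums of counts as library sizes, with cyclic loess and without Adult replicate 4 (adjusted p = 0.133, 0.0848 and 0.163). The ACS 100603 bp upstream was Down without Adult replicate 4 (adjusted p = 0.125). The ACS 42959 bp upstream was Up with limma voom, with TMM factors from starts and without P10 replicate 1 (adjusted p = 0.192, 0.109 and 0.0495). The 4 ACS inside the gene were not called, and their log2 fold changes ranged from -0.20 to 0.40. Without P10 replicate 1 the ACS 3646 bp from the start was 0.70 and called Up (adjusted p = 0.136).

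The ACS 155599 bp upstream (chr2:133957380-133958200) was the most changed of the 41. Its level was 18.5, 13.3 and 21.7 CPM in Adult replicates 4, 5 and 6 and 7.76, 4.92 and 5.87 CPM in P10 replicates 1, 2 and 3. All Adult libraries stood above all P10 libraries, with means of 17.8 ± 4.2 and 6.18 ± 1.45 CPM (SD, n = 3 each). The log2 fold change was 1.51 ± 0.24 (SE, 95% interval 1.02 to 2.01, adjusted p = 0.000124), a 2.86-fold higher level in Adult. The call held when any library was left out.

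The ACS 139926 bp upstream (chr2:133973053-133973442) measured 15.8, 15.1 and 17.4 CPM in Adult and 8.60, 10.6 and 9.41 CPM in P10. The groups did not overlap, and the log2 fold change was 0.76 ± 0.21 (SE, adjusted p = 0.0223), again whichever library was left out. Both ACS lie within the span of *Tnik*, the neighbouring kinase gene, as do 8 of the 21 ACS in all. The nearest start is that of *Slc2a2* by the table, and which gene they act on was not measured.

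The ACS 24688 bp upstream (chr2:134088291-134088503) measured 5.60, 4.48 and 6.06 CPM in Adult and 3.11, 2.85 and 2.01 CPM in P10. Every Adult value exceeded every P10 value, by a log2 fold change of 1.01 ± 0.31 (SE, adjusted p = 0.0342) that was called whichever library was left out. The ACS 29795 bp upstream (chr2:134083184-134083586) measured 8.13, 4.58 and 4.25 CPM in Adult and 3.53, 3.92 and 1.64 CPM in P10. These groups did not overlap either, but Adult replicate 4 and P10 replicate 3 carried much of the difference. The log2 fold change of 0.92 ± 0.34 (SE, adjusted p = 0.0915) was 0.55 without Adult replicate 4 (adjusted p = 0.455) and 0.60 without P10 replicate 3 (adjusted p = 0.393), and the call was lost in both.

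Downstream, the ACS at 203857 bp (chr2:134316836-134317091) measured 2.62, 4.77 and 2.84 CPM in Adult and 0.60, 1.93 and 1.80 CPM in P10. The groups did not overlap, and the log2 fold change was 1.27 ± 0.41 (SE, adjusted p = 0.0483). It was 0.94 without Adult replicate 5 (adjusted p = 0.233) and 0.87 without P10 replicate 1 (adjusted p = 0.206), and the call was then lost. The ACS at 272859 bp (chr2:134385838-134386360) measured 3.61, 6.04 and 4.77 CPM in Adult and 1.58, 3.07 and 3.75 CPM in P10, with overlap between the ages. Its log2 fold change was 0.79 ± 0.34 (SE, adjusted p = 0.164). It was 0.58 without Adult replicate 5 and 0.48 without P10 replicate 1 (adjusted p = 0.412 and 0.460), and it stayed at 0.79 without Adult replicate 6 and 0.84 without P10 replicate 2 (adjusted p = 0.240 and 0.282), in each case without a call. The call was also lost under DESeq2 (0.77, adjusted p = 0.213) and with sums of counts as library sizes (0.69, adjusted p = 0.239).

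**Figure D2:**
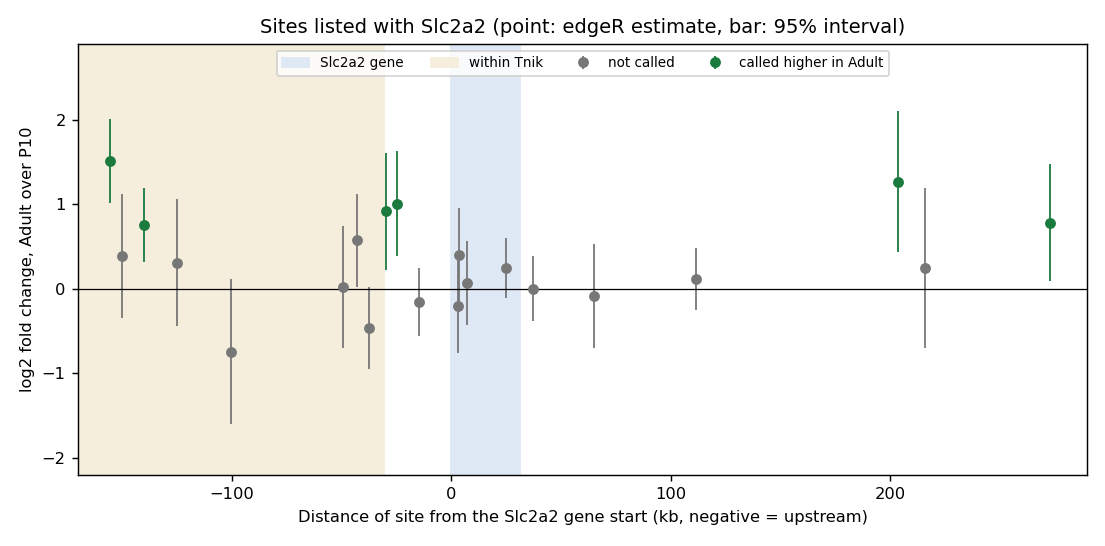
Log2 fold change (Adult over P10, y axis) of the 21 ACS listed with *Slc2a2* against their distance from its start in kb (x axis). Bars are 95% intervals computed from the edgeR test. The blue band is the gene and the tan band the part of *Tnik* shown. The Up calls lie upstream and far downstream, and the intervals of the 4 ACS inside the gene all include 0.

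The most accessible ACS of *Slc2a2* were not those called. The ACS inside the gene 24916 bp from its start (chr2:134137895-134138656) measured 58.2, 50.5 and 56.2 CPM in Adult and 60.1, 40.7 and 38.0 CPM in P10. P10 replicate 1 was above all Adult libraries and the other P10 libraries were below them. The log2 fold change was 0.25 (95% interval -0.11 to 0.60, adjusted p = 0.456), and without P10 replicate 1 it was 0.47 and called Up (adjusted p = 0.0820). The same library was also the highest of the P10 libraries at each of the 4 ACS inside the gene, and the highest of them at 22 of the 41 ACS. How often it was so over all ACS was not counted, so these counts cannot be read as a trait of these genes. At the ACS 14658 bp upstream, P10 replicate 1 read 54.2 CPM against 34.6 and 27.8 CPM in the other P10 libraries, and at the ACS 37179 bp downstream it read 59.3 against 38.0 and 33.0 CPM. The summed level of the β-cell marker ACS was likewise highest in P10 replicate 1 among the P10 libraries, at 1070 CPM against 828 and 831 CPM, and the part of this in the *Slc2a2* values was not tested.

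By place, the ACS within *Tnik* summed to 59.6 ± 4.34 CPM in Adult and 41.3 ± 2.12 CPM in P10 (SD, n = 3 each). Without the 2 called ACS the other 6 summed to 25.7 ± 2.01 and 25.6 ± 1.67 CPM. The log2 fold changes of these 6 ran from -0.74 to 0.57, with 4 above 0. Because the 2 were taken out for their calls, the remaining sum is no test of the rest. The sums were 46.1 ± 4.57 and 44.6 ± 15.0 CPM for the 3 ACS between *Tnik* and *Slc2a2*, 85.6 ± 7.96 and 75.1 ± 22.4 CPM for those inside *Slc2a2* and 95.8 ± 8.52 and 88.7 ± 10.8 CPM for the 6 downstream. Over all 21 ACS the sum was 292, 276 and 293 CPM in Adult and 306, 228 and 215 CPM in P10. These totals overlapped (exact permutation test, two-sided p = 0.40, smallest possible 0.10), since the high P10 library exceeded all 3 Adult libraries.

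*G6pc2* encodes the islet glucose-6-phosphatase catalytic subunit, which opposes glucokinase and so sets the glucose level at which the β-cell responds. It had no ACS by symbol or by gene ID. Whether the annotation behind the table held the gene is not given in the sources used here, so the missing listing says nothing of its chromatin. *Spc25* and *Abcb11* flank it in RefSeq GRCr8, and between these genes the table held 2 ACS in Rn5, both listed with *Spc25*. The ACS at chr3:62068948-62069442 measured 18.4, 6.33 and 14.8 CPM in Adult and 13.2, 15.3 and 16.2 CPM in P10. The one at chr3:62072331-62072828 measured 6.24, 4.38 and 6.19 CPM in Adult and 7.02, 6.70 and 7.14 CPM in P10. The former overlapped between ages while the latter was lower in each Adult library, with log2 fold changes of -0.18 (adjusted p = 0.775) and -0.32 (adjusted p = 0.547), and neither was called.

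*Pfkfb2* encodes the bifunctional enzyme that makes and breaks down the allosteric activator of phosphofructokinase. The ACS over its start (chr13:52529322-52530149) measured 62.1, 48.8 and 59.8 CPM in Adult and 44.7, 31.7 and 33.1 CPM in P10. The lowest Adult library was above the highest P10 library. The log2 fold change was 0.64 ± 0.17 (SE, 95% interval 0.29 to 0.99, adjusted p = 0.0157), 1.56-fold higher in Adult, and the call held when any library was left out. The FOXA and MAF letters shown above lie before the RefSeq start of this gene, and whether they fall within this ACS was not checked.

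The neighbouring ACS of *Pfkfb2*, 1405 bp into the gene, was as accessible and did not follow: it measured 65.6, 66.6 and 62.9 CPM in Adult and 63.9, 58.6 and 59.3 CPM in P10, a log2 fold change of 0.10 (95% interval -0.20 to 0.41, adjusted p = 0.770). The remaining ACS of the gene, at 7225 and 19165 bp, were not called either (log2 fold changes 0.01 and 0.33). Summed over the 4 ACS, *Pfkfb2* measured 145, 133 and 139 CPM in Adult and 128, 105 and 107 CPM in P10. The sums did not overlap, and the exact permutation test gave its smallest possible two-sided p of 0.10 (0.40 after adjustment over the 8 genes tested).

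*Pklr* encodes the pyruvate kinase of liver and islets, which makes pyruvate at the end of glycolysis. The ACS over its start (chr2:207865736-207866267) measured 9.94, 5.06 and 6.57 CPM in Adult and 12.8, 7.70 and 8.67 CPM in P10. Whether the carbohydrate response element match shown above falls within this ACS was not checked. The ages overlapped, and the log2 fold change was -0.43 (95% interval -0.99 to 0.12, adjusted p = 0.388). It was called Down without Adult replicate 4 (-0.75, adjusted p = 0.147) and with cyclic loess (-0.58, adjusted p = 0.188). The ACS 17837 bp upstream (chr2:207848190-207848491) measured 1.72, 0.88 and 1.55 CPM in Adult and 3.25, 3.21 and 2.43 CPM in P10. It was the Down call among the 41, with no overlap and a log2 fold change of -1.10 ± 0.38 (SE, adjusted p = 0.0699). The call was lost without Adult replicate 5 (-0.85, adjusted p = 0.208) and without P10 replicate 2 (-1.06, adjusted p = 0.203). The other ACS of *Pklr*, 4365 bp upstream and 9281 bp downstream of the start, had log2 fold changes of 0.10 and -0.02.

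**Figure D3:**
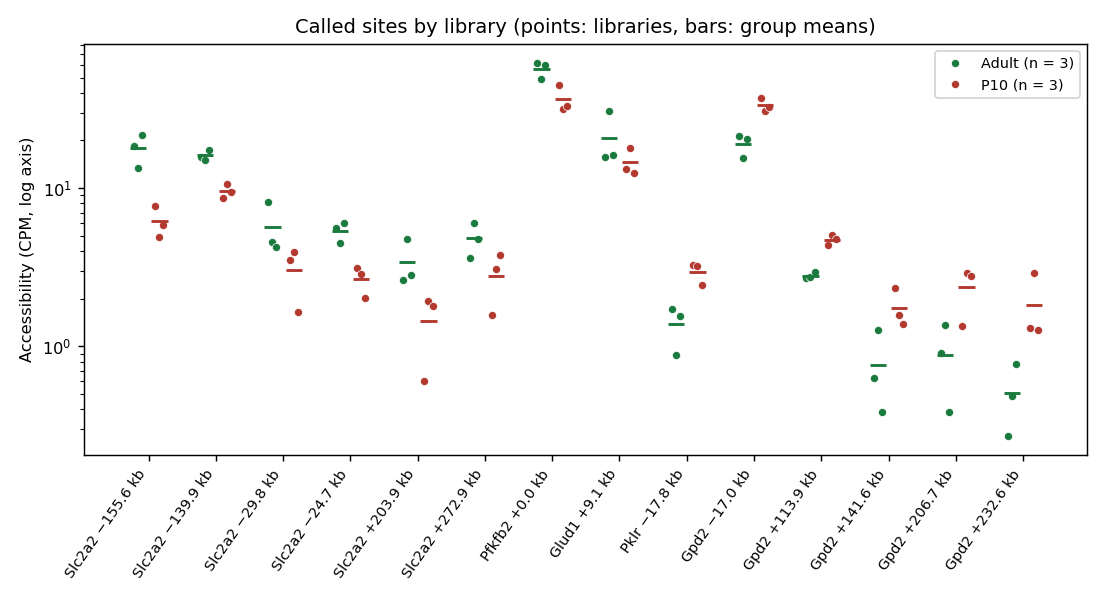
CPM (log y axis) of each library at the 14 called ACS of these genes, 9 of the 41 and 5 of *Gpd2*, named by gene and distance from its start (x axis). Points are libraries and bars are group means. Adult lies above P10 in *Slc2a2*, *Pfkfb2* and *Glud1* and below it in *Pklr* and *Gpd2*, with points of both ages overlapping at *Slc2a2* +272.9 kb, *Glud1* +9.1 kb and *Gpd2* +206.7 kb.

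*Gpd2* encodes the mitochondrial glycerophosphate dehydrogenase, which passes reducing power from cytosolic glycolysis to the respiratory chain and is abundant in β-cells. Of its 30 ACS (gene at chr3:48295428-48426566), 5 were called Down and 0 Up, against 6.63% and 12.3% of all ACS. The median log2 fold change was -0.23, beside -0.01 over all ACS, and 23 of the 30 were below 0. By edgeR 7 of the 30 had an unadjusted p under 0.05. The shares of all ACS below 0 and at that limit were not counted, so nothing is read from these counts.

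The ACS 16972 bp upstream (chr3:48278456-48279304) measured 21.2, 15.6 and 20.4 CPM in Adult and 37.0, 30.8 and 32.5 CPM in P10. The groups were far apart, with a log2 fold change of -0.81 ± 0.18 (SE, 95% interval -1.19 to -0.43, adjusted p = 0.00444), 1.76-fold higher in P10, whichever library was left out. The ACS 232581 bp downstream of the start (chr3:48528009-48528222) measured 0.27, 0.49 and 0.77 CPM in Adult and 1.3, 2.92 and 1.27 CPM in P10. It was also called without any single library (log2 fold change -1.86 ± 0.52, SE, adjusted p = 0.0224), on only 3 to 6 integrations per Adult library.

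The other 3 Down calls of *Gpd2* were lost in some fits with a library left out. The ACS at 113897 bp, inside the gene, measured 2.71, 2.73 and 2.96 CPM in Adult and 4.37, 5.06 and 4.76 CPM in P10 (log2 fold change -0.76 ± 0.30, SE, adjusted p = 0.127). The groups did not overlap. Without Adult replicate 4, P10 replicate 2 or P10 replicate 3 the log2 fold change stayed near that value (-0.73, -0.72 and -0.76) but was not called (adjusted p = 0.246, 0.320 and 0.243), nor was it with TMM factors from starts alone (-0.66, adjusted p = 0.203). The ACS at 141597 bp measured 0.63, 1.27 and 0.39 CPM in Adult and 2.32, 1.57 and 1.37 CPM in P10 (log2 fold change -1.17 ± 0.46, SE, adjusted p = 0.125). Without Adult replicate 4 or 6 or P10 replicate 1 or 2 the log2 fold change was -1.02, -0.90, -0.91 and -1.26 and was not called (adjusted p = 0.282, 0.345, 0.344 and 0.207), and DESeq2 gave -1.20 without a call (adjusted p = 0.202). The ACS at 206708 bp measured 0.90, 1.36 and 0.39 CPM in Adult and 1.35, 2.92 and 2.80 CPM in P10 (log2 fold change -1.35 ± 0.46, SE, adjusted p = 0.0638). Here the ages overlapped. Without Adult replicate 6, P10 replicate 2 or P10 replicate 3 the log2 fold change was -1.04, -1.19 and -1.21 and was not called (adjusted p = 0.221, 0.232 and 0.225). In other fits ACS gained calls (adjusted p in brackets). The ACS at 33778 bp was Down with sums of counts as library sizes, limma voom and median-of-ratios factors (0.168, 0.187 and 0.197). Without Adult replicate 5 or P10 replicate 1 it was Down too (0.0352 and 0.166). The ACS at 206468 bp was Down with sums of counts and without Adult replicate 5 (0.183 and 0.130). That at 288362 bp was Up with TMM factors from starts and without Adult replicate 5 (both 0.144).

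At the *Gpd2* start (chr3:48294654-48295619) accessibility was 49.9, 40.1 and 50.8 CPM in Adult and 57.5, 48.7 and 53.9 CPM in P10. The ages overlapped, with a log2 fold change of -0.19 (95% interval -0.51 to 0.14, adjusted p = 0.564). The sum over all 30 ACS was 212, 174 and 211 CPM in Adult and 237, 228 and 237 CPM in P10. These sums did not overlap (exact permutation test, two-sided p = 0.10, 0.40 after adjustment over the 8 genes).

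*Pc* encodes pyruvate carboxylase, the main anaplerotic enzyme of the β-cell. Its start (chr1:226626320-226627100) measured 52.3, 49.2 and 40.9 CPM in Adult and 56.6, 58.8 and 53.1 CPM in P10. Each Adult library was below each P10 library, but the log2 fold change of -0.24 (95% interval -0.56 to 0.08, adjusted p = 0.413) was not called. It was called Down with sums of counts as library sizes (-0.34, adjusted p = 0.156) and with cyclic loess (-0.31, adjusted p = 0.183). The 2 ACS inside the gene, 38185 and 43163 bp from the start, had log2 fold changes of 0.02 and 0.17 and overlapped between ages. Per kb the *Pc* start was among the more accessible starts, at 60.8 CPM per kb in Adult and 71.9 in P10.

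*Glud1* encodes glutamate dehydrogenase, through which glutamate enters the citric acid cycle. Its only listed ACS, 9131 bp into the gene (chr16:8989483-8990016), measured 15.6, 30.9 and 16.1 CPM in Adult and 13.2, 17.9 and 12.4 CPM in P10. Adult replicate 5 stood far above every other library, and the remaining values overlapped. The ACS was called Up (log2 fold change 0.53 ± 0.24, SE, adjusted p = 0.186). Without Adult replicate 5 the log2 fold change was 0.13 (adjusted p = 0.798), and the call was also lost without P10 replicate 1 or 3 (adjusted p = 0.328 and 0.470) and under DESeq2, limma voom, cyclic loess and sums of counts as library sizes (adjusted p = 0.274, 0.227, 0.470 and 0.281). The span of another gene in the table, *Chat*, also covers this place.

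The start of *Glud1* itself is covered by an ACS listed with the neighbouring *Fam35a* (chr16:8979875-8980680). It measured 74.8, 61.6 and 69.5 CPM in Adult and 65.5, 60.2 and 56.3 CPM in P10. The ages overlapped, and it was not called (log2 fold change 0.18, 95% interval -0.13 to 0.49, adjusted p = 0.564). Reads over a start that 2 genes share cannot be given to either.

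*Me1* encodes the cytosolic malic enzyme, which turns malate into pyruvate and makes NADPH. None of its 6 ACS was called. The start (chr8:93863561-93863902) was the least accessible of the starts, at 3.34, 2.82 and 1.80 CPM in Adult and 4.51, 3.85 and 3.81 CPM in P10. Adult was below P10 in each library, with a log2 fold change of -0.59 (95% interval -1.25 to 0.07, adjusted p = 0.305). With sums of counts as library sizes it was -0.69 and called Down (adjusted p = 0.1997). The other 5 ACS had log2 fold changes between -0.37 and 0.39. The ACS 15577 bp upstream of the start, at 8.58, 7.89 and 7.73 CPM in Adult and 7.90, 4.56 and 5.92 CPM in P10 (log2 fold change 0.39, adjusted p = 0.428), was called Up without P10 replicate 1 (0.60, adjusted p = 0.189).

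Inside the *Me1* gene lay 2 further ACS that the table lists with *Rwdd2a*. The one at chr8:93809548-93809861 measured 19.6, 15.3 and 21.5 CPM in Adult and 12.7, 8.99 and 10.7 CPM in P10. It did not overlap between ages and was called Up (log2 fold change 0.79 ± 0.22, SE, adjusted p = 0.0181), whichever library was left out. By its nearest start this ACS of the *Me1* gene body is not among the 41. The other, at chr8:93808777-93809121, was not called (log2 fold change 0.38, adjusted p = 0.444). Some ACS within other members are likewise listed with a neighbour. Those 117 bp upstream and 10147 bp downstream of the *Lrfn4* start, within *Pc*, were not called. Nor were those 18327 bp upstream of *C4bpb*, within *Pfkfb2*, and 22840 bp downstream of the *Fam25a* start, within *Glud1*. The *Lrfn4* ACS at 10147 bp was called Down without Adult replicate 5 (adjusted p = 0.104) and with sums of counts as library sizes (0.172).

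*Ucp2* encodes a carrier of the inner mitochondrial membrane that is known to lower ATP yield and to restrain insulin release. Its start (chr1:171707044-171708042) measured 22.0, 17.5 and 17.02 CPM in Adult and 25.8, 18.7 and 20.6 CPM in P10. The ACS 2077 bp into the gene (chr1:171709698-171710266) measured 18.1, 15.5 and 15.2 CPM in Adult and 21.1, 20.7 and 17.2 CPM in P10. Both overlapped between ages and neither was called, with log2 fold changes of -0.20 (95% interval -0.60 to 0.20, adjusted p = 0.632) and -0.27 (95% interval -0.67 to 0.13, adjusted p = 0.476). With cyclic loess the latter was -0.38 and called Down (adjusted p = 0.185). Other gene entries of the table cover the same place.

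**Figure D4:**
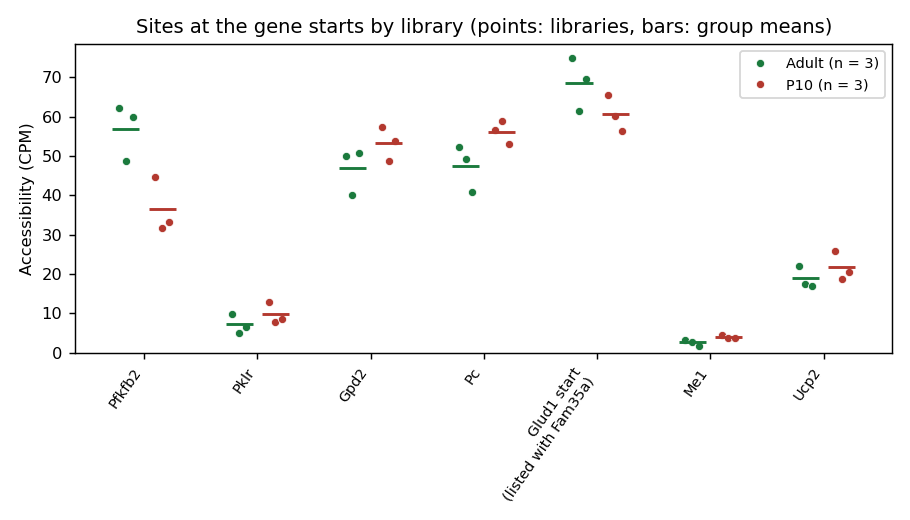
CPM (y axis, from 0) of each library at the ACS over the starts of 7 genes, with *Glud1* represented by the ACS listed with *Fam35a*. Points are libraries and bars are group means. *Pfkfb2* is the start whose call passed the test, and at *Pc* and *Me1* each Adult library lies below each P10 library without a call.

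Summed per gene, the ages were separate for *Pfkfb2* (139 ± 5.83 CPM in Adult, 113 ± 12.8 in P10) and *Gpd2* (199 ± 21.4 and 234 ± 5.10) and overlapped for the other 6 genes (SD, n = 3 each). The adjusted p of the exact permutation tests was between 0.40 and 0.80. With 3 libraries against 3 the unadjusted p cannot go below 0.10. The difference in summed accessibility, as a log2 ratio of the means, ran from -0.28 for *Pklr* to 0.52 for *Glud1*, whose value without Adult replicate 5 was 0.13.

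**Figure D5:**
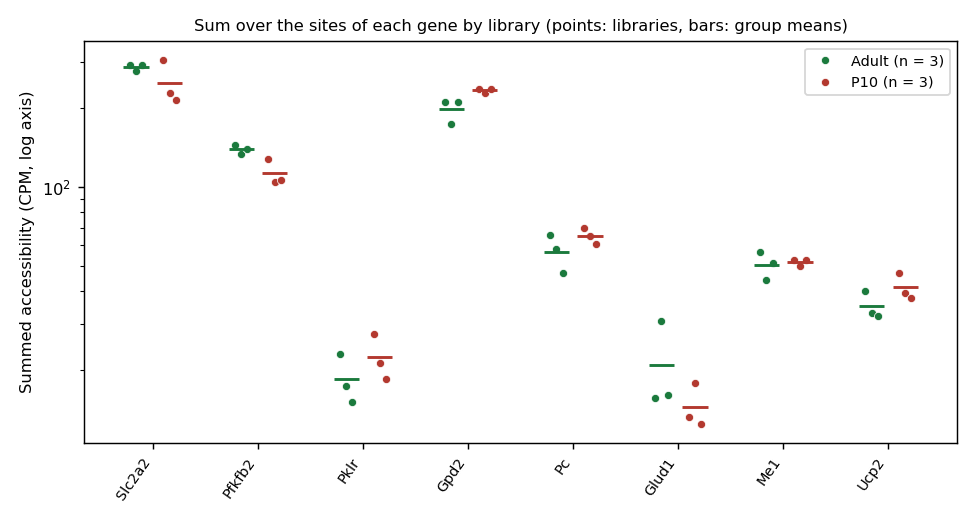
Sum of CPM over the ACS listed with each gene (log y axis) in each library, for the 8 genes with an ACS (x axis). Points are libraries and bars are group means. The ages separate for *Pfkfb2* and *Gpd2*, and P10 replicate 1 lies highest of all libraries for *Slc2a2*.

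The genes whose summed log2 CPM followed 6 of these members most closely across the 6 libraries were taken from the members and the wider list below, 78 genes for each. They were *Gpt2* for *Slc2a2* (Pearson r = 0.96) and for *Pfkfb2* (0.97), *Mpc2* for *Gpd2* (0.82) and *Me1* (0.90), *Hk1* for *Glud1* (0.81) and *Pck1* for *Ucp2* (0.99). The 6 points share library, depth and age group, and the highest of many values is given as a description.

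A wider list of 80 genes of glycolysis, gluconeogenesis, the shuttles, the citric acid cycle and glutamine metabolism was read from the same fit. It held 455 ACS of 71 genes. Of these 78 (17.1%) were Up and 27 (5.93%) Down, beside 12.3% and 6.63% of all ACS, and the median log2 fold change was 0.00 beside -0.01. The split was 99 Up and 14 Down with TMM factors from starts alone, 63 and 51 with sums of counts as library sizes, 67 and 39 with cyclic loess, and 5 and 265 with total reads as library sizes. Of its 333 distal ACS 67 (20.1%) were Up and 20 (6.01%) Down, beside 13.8% and 6.45% of all distal ACS. The Up calls came from 27 of the 71 genes and the Down calls from 19. *Got2* gave 11 Up calls among its 38 ACS and *Sucla2* gave 8 among its 28. Which genes the distal ACS act on was not measured.

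The Up ACS with the smallest p and no overlap was 60180 bp downstream of the start of *Sucla2*, a subunit of succinyl-CoA ligase (31.2 ± 5.62 CPM in Adult and 8.82 ± 0.76 in P10, SD, n = 3 each, log2 fold change 1.82). It was followed by an ACS 43751 bp from the start of *Pdk4*, a kinase that shuts pyruvate dehydrogenase (87.9 ± 11.9 and 38.6 ± 3.26 CPM, log2 fold change 1.19), and by 3 ACS between 293355 and 1065646 bp upstream of *Got2*, the mitochondrial aspartate transaminase (log2 fold changes 1.32 to 1.62). All 5 stayed called when any library was left out. The corresponding Down ACS lay 193273 bp upstream of *Pfkp*, the platelet phosphofructokinase (log2 fold change -0.79), 56146 bp downstream of the start of *Glul*, glutamine synthetase (-0.91), 50769 bp downstream of that of *Suclg1* (-0.72), 89118 bp upstream of *Aco1* (-1.39) and at the start of *Txnip* (-0.57). The first 3 of these stayed called without any single library, while without P10 replicate 2 the log2 fold change was -0.99 for *Aco1* (adjusted p = 0.373) and -0.56 for *Txnip* (adjusted p = 0.203), neither of them called.

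At the 67 starts of the wider list, 2 were Up (2.99%) and 6 Down (8.96%), beside 2.73% and 7.87% of all starts. Up were *Pdhb*, a subunit of pyruvate dehydrogenase (110 ± 14.6 CPM in Adult, 80.5 ± 3.84 in P10, log2 fold change 0.46), and *Gpd1l* (62.6 ± 6.15 and 48.3 ± 2.09 CPM, 0.37). Among the Down starts were *Txnip*, a glucose-induced inhibitor of thioredoxin (14.4 ± 0.23 and 21.5 ± 2.44 CPM, -0.57), *Slc25a11* (13.5 ± 3.19 and 20.6 ± 4.01 CPM, -0.61), *Sucla2* (20.5 ± 0.37 and 28.0 ± 2.35 CPM, -0.45), *Hk1* (12.2 ± 0.68 and 17.6 ± 3.71 CPM, -0.53) and *Me3* (37.7 ± 7.76 and 50.2 ± 1.93 CPM, -0.41). None of these 7 was called without P10 replicate 2, where the log2 fold changes were 0.40 for *Pdhb*, 0.32 for *Gpd1l*, -0.56 for *Txnip*, -0.54 for *Slc25a11*, -0.42 for *Sucla2*, -0.36 for *Hk1* and -0.46 for *Me3* (adjusted p = 0.203 to 0.538). *Pdhb* and *Txnip* kept it in the other 5 fits that left out a library, while it was also lost without Adult replicate 6 for *Slc25a11*, without Adult replicate 4 or 5 for *Hk1*, without Adult replicate 4 or 6 or P10 replicate 3 for *Sucla2*, without Adult replicate 5 or 6 or P10 replicate 3 for *Me3*, and without any library but Adult replicate 5 for *Gpd1l*.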

How the data were processed

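Per the labels and the study's methods, the authors aligned paired-end ATAC-seq reads to Rn5 with BWA 0.7.13, processed them with SAMtools 1.3, discarded mitochondrial and poorly mapped reads, called peaks with MACS2 2.1.1 on the libraries of each age joined, merged the peaks and counted Tn5 integrations per ACS with pyDNase. The deposited values are whole-number counts, not normalised, in 6 columns. Removal of PCR duplicates is not given in the sources used here, so errors cover the counts as they stand. The columns of the authors' own comparison (log2 fold change, average abundance, F, p and FDR) were not used. The class, nearest gene and distance, measured from the lower end of the ACS, are those of the table. Of 101941 entries, 101603 were distinct, and each was tested once. Of 6899 entries without a symbol, 6707 were named by gene ID.

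Counts were fitted with edgeR 4.0.16 (R 4.3.3, TMM factors 0.93 to 1.04, no filter on low counts, glmQLFTest, age as the only term), with Benjamini-Hochberg adjustment over all ACS. CPM used the same factors. Gene sums were compared by exact permutation over the 10 splits. Every called ACS, every ACS of the TSS class and otherwise the ACS with the smallest p of each gene were named, and, of the wider list, the called starts and the 5 ACS with the smallest p and no overlap in each direction. Other ACS of *Slc2a2*, *Pfkfb2*, *Gpd2* and *Pc*, and those within or beside a member but listed elsewhere, were chosen after their values were seen. A gene of the wider list that the rule would name is not reported here. The members and all lists were chosen with earlier results of these data known. Promoters came from RefSeq GRCr8, which held none for *Pc* in the table used, and were searched on both strands for the E-box core CACGTG, the FOXA motif GTAAACA, the homeodomain core TAATTA, the MAF motif TGCTGA, the GC box GGGCGG, the CCAAT box, the TATA box with the letters TATAAA, the AP-1 motif TGACTCA and the carbohydrate response element. Nothing states the animals behind each library beyond its rat or litter. DESeq2 1.42.0, limma 3.58.1 and the alternatives named in the closing section were also run, and the fit was tested on simulated counts.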

Additional observations from a re-analysis of the deposited data

How the results depend on the processing

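No paired analysis was possible because the Adult libraries carry the numbers 4, 5 and 6 and the P10 libraries 1, 2 and 3. A tally under 14 alternatives took 19 ACS listed with these genes, those called and the uncalled ones of the TSS class. Of its 266 values, 217 kept direction and call, 36 lost the call, 10 gained one and 3 reversed. Calls gained at other named ACS are not in this tally. The 3 reversed with total reads as library sizes, a scaling that moved the median of all ACS by -0.83: *Glud1* +9131 to -0.29, *Pfkfb2* +24 to -0.24 and *Slc2a2* -139926 to -0.070, which are 0.56, 0.61 and 0.77 above that median. In the same setting the gene sums moved to -0.67 (*Slc2a2*), -0.56 (*Pfkfb2*), -1.14 (*Pklr*), -1.08 (*Gpd2*), -1.04 (*Pc*), -0.29 (*Glud1*), -1.09 (*Ucp2*) and -0.88 (*Me1*), and the counts to 0 Up and 25 Down of the 41, 5 and 265 of the wider list and 1062 and 61663 of all ACS.

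At an FDR under 0.05 the counts were 5 Up and 0 Down of the 41, 46 and 3 of the wider list and 7177 and 1945 of all ACS. With sums of counts as library sizes the Down counts were 4, 51 and 10732, with TMM factors from starts 14 of the wider list and 4318 of all ACS, and with cyclic loess 5 of the 41. With *Gpd2* added, Down was 6, and without the *Slc2a2* ACS beyond 100 kb, Up was 4; both were chosen after seeing the data. Leaving out 1 library gave 5 to 9 Up (lowest without Adult replicate 5) and 0 to 4 Down of the 41 (0 without Adult replicate 5 or P10 replicate 2, 4 without Adult replicate 4), 10 to 23 Down of the wider list (lowest without P10 replicate 2, 16 without Adult replicate 6 and 17 without P10 replicate 1), and 7973 to 13232 Up and 3285 to 7215 Down of all ACS (lowest without P10 replicate 2, and 4232 Down without P10 replicate 3). The causes of these moves were not tested. DESeq2, limma voom, median-of-ratios factors and a filter on low counts kept every count within 1.5 times. Low counts, 3 to 6 integrations per Adult library at the faintest named ACS, limit the precision there.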
